A study of Mus musculus with 40 samples.

Results

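Mammary glands of mice labelled Ezh2 knockout (KO) were compared with control glands on day 18 of pregnancy (p18), shortly before birth, across all genes that reached 1 FPKM in either group. FPKM is the number of sequenced fragments of a gene, divided by transcript length and by the mapped fragments of the library. Of 22552 genes in the deposited table, 12534 met this rule. The genes nearest to the limit were Sfxn4 at 1.00 FPKM inside it and 1700084E18Rik, Lrdd and Map3k9 just under 1 FPKM outside it. The values are 1 pooled FPKM per group, which the authors made for groups of 3 libraries each, and the labels do not say whether each library came from a separate mouse. No spread between mice can be computed from them, no difference below has a replicate check or a test, and read depth is unknown.

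The KO glands carry the genotype label Ezh2f/f;control, and the control glands are labelled MMTV-Cre. Since the study's design note gives MMTV-Cre as the meaning of control, both groups carry the Cre transgene, and only the KO group carries the floxed Ezh2 alleles. The Cre comes from a line with the MMTV promoter, which is active in mammary epithelium but not only there. RNA came from whole mammary tissue of outbred mice. The pregnant mice had no treatment, and their ages are not given in the labels. Other p18 groups, set beside the main pair below, were Ezh1 KO (E1-/-) and Ezh2 KO with a single Ezh1 allele (E1+/-;E2f/f;control, called Ezh1 het Ezh2 KO). The pooled value of p18 Ezh1 KO comes from only 2 libraries, and that of p18 Ezh1 het Ezh2 KO from 3. The same genotypes on day 13 of pregnancy (p13) serve for the stage comparisons. Virgin control groups, cited below for Gm5506 alone, were 12 weeks old, with 2 libraries in each pooled value. The virgin group with prolactin was given 5 ug per g.

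EZH2 is a catalytic subunit of Polycomb repressive complex 2 (PRC2), which methylates lysine 27 of histone H3 and holds many developmental genes silent, and EZH1 is the alternative subunit. During pregnancy, prolactin acts through its receptor, the kinase JAK2 and the transcription factor STAT5 to turn mammary epithelial cells into secretory alveoli, while the fat that fills the virgin gland recedes. Caseins and other milk protein genes come on in mid pregnancy, and late pregnancy adds whey proteins, lactose synthesis, milk fat secretion and mineral transport. The series asks how EZH2 bears on this differentiation.

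Ezh2 itself was at 6.41 FPKM in Ezh2 KO and 10.01 FPKM in control, a log2 difference of -0.57. Differences throughout are log2(FPKM + 1) in Ezh2 KO minus that in control. The added 1 shrinks the differences of weakly expressed genes, and folds were taken on FPKM without it. The Ezh1 het Ezh2 KO group had 6.24 FPKM of Ezh2 and the Ezh1 KO group 9.26. Ezh1 was at 7.34 FPKM in Ezh2 KO and 7.37 FPKM in control. The value takes in every exon and every cell type of the tissue, and the labels do not name the deleted exons, so it is no measure of how many cells lost the gene. Among the other PRC2 genes, Suz12 (14.4 against 16.8 FPKM), Eed (10.6 against 10.9 FPKM) and the accessory subunit Phf19 (1.17 against 2.63 FPKM) lay on the lower side in Ezh2 KO, and Jarid2 (8.44 against 6.87 FPKM) and Rbbp4 (37.04 against 31.1 FPKM) on the higher side. None of the 14 PRC2 and H3K27 demethylase genes at 1 FPKM or more reached a difference of 1, and their median was -0.04. With each column scaled to a common sum the median was 0.24, so no direction is read from it.

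Over all 12534 genes, Ezh2 KO exceeded control by at least 1 log2 unit in 340 (2.71%) and lay below it by as much in 306 (2.44%). The median difference was -0.01, and 10083 genes (80.4%) lay within 0.5 log2 units of equality. These 2 percentages are the background for the counts below. Among 201 small RNA genes, 54 were higher and 70 lower, and 76 of the 81 genes past the threshold that were listed at 0 in 1 column were small RNAs. The 11952 protein-coding genes included 273 (2.28%) on the higher and 218 (1.82%) on the lower side. The FPKM of all genes summed to 787794 in Ezh2 KO and to 980997 in control. The difference of -193204 FPKM was made of -232343 in the milk protein genes and 39139 in all other genes. Because a few milk genes weigh so much on the sums, scaling the columns to a common sum adds 0.27 log2 units to the median gene and gives 621 higher and 175 lower genes. Scaling to a common sum without the milk protein genes gives 283 higher and 387 lower.

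**Figure D1:**
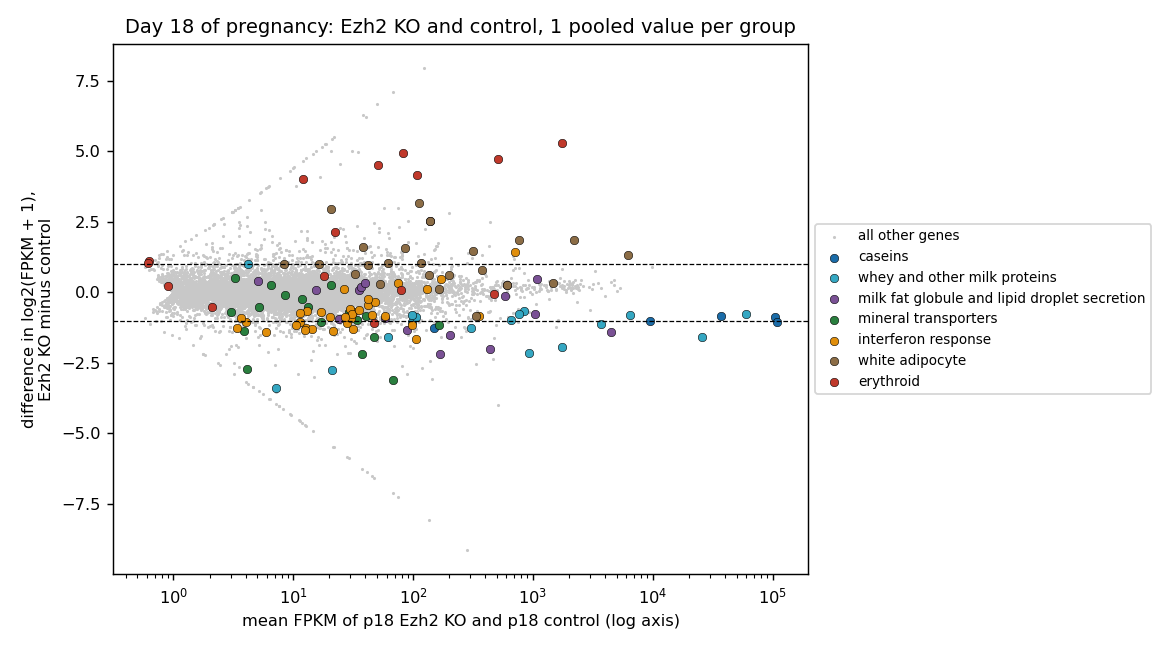
Difference in log2(FPKM + 1) between Ezh2 KO and control at p18 (vertical axis) against the mean FPKM of both groups (horizontal, log axis). Each point is 1 gene, coloured points are members of the named lists, and dashed lines mark differences of -1 and 1. The most abundant milk protein genes fill the lower right, and globins and many fat genes stand above the upper line. The grey streaks that fan out to both sides are mostly small RNAs listed at 0 in 1 group.

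Milk protein genes were lower in Ezh2 KO. Csn2, the beta-casein gene, was at 70592 FPKM in Ezh2 KO, 124750.0 in Ezh1 KO, 144169 in Ezh1 het Ezh2 KO and 145905 in control. The 3 other groups lay close to each other and Ezh2 KO stood well below them. Csn1s2a, an alpha-casein gene, was likewise low in Ezh2 KO alone, at 73165 FPKM in Ezh2 KO, 137408 in Ezh1 KO, 144306 in Ezh1 het Ezh2 KO and 134328 in control. Csn1s1, the other major alpha-casein gene, was at 26615 FPKM in Ezh2 KO and 47678 FPKM in control, and Csn3, whose kappa-casein coats and stabilises the casein micelle, at 6244 FPKM in Ezh2 KO and 12584 FPKM in control. Csn1s2b, a minor casein, was at 88.03 FPKM in Ezh2 KO and 212 FPKM in control. All 5 caseins thus lay within a narrow band of differences, from -1.26 to -0.84. They straddle the threshold, so the count of 3 lower caseins of 5 says less than the band does, and with a common sum the count is 0 while the median of -1.01 becomes -0.69.

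Whey and other milk proteins differed more widely, with 9 of 17 lower, 1 higher and a median of -1.06. Wap, the whey acidic protein of rodent milk, was at 12683 FPKM in Ezh2 KO, 33251 in Ezh1 KO, 36766 in Ezh1 het Ezh2 KO and 38474 in control. Lalba, whose product alpha-lactalbumin turns a galactosyltransferase into lactose synthase, was at 717 FPKM in Ezh2 KO, 1021 in Ezh1 KO, 3153 in Ezh1 het Ezh2 KO and 2785 in control. In Lalba the Ezh1 KO group stood nearer to Ezh2 KO, whereas in Wap it stood nearer to the control. Glycam1, a mucin-like milk glycoprotein, had the smaller difference of -0.77, at 44127 FPKM in Ezh2 KO and 75375 FPKM in control. Lao1, an L-amino acid oxidase of mouse milk that produces hydrogen peroxide, was at 343 FPKM in Ezh2 KO and 1511 FPKM in control, which is 4.4004-fold lower. Lpo, the lactoperoxidase that uses such peroxide against bacteria, was at 4.69 FPKM in Ezh2 KO and 37.1 FPKM in control. Pip, a prolactin-inducible secretory protein, had the lowest difference of the protein-coding genes at 5 FPKM or more, with 0.397 FPKM in Ezh2 KO, 1.197 in Ezh1 KO, 4.104 in Ezh1 het Ezh2 KO and 13.8 in control. Muc1 (30.5 against 93.2 FPKM), a mucin of the apical membrane, Spp1 (2337 against 5072 FPKM), the osteopontin gene, and Ltf (63.1 against 133 FPKM), the lactoferrin gene, were the others past the threshold, together with Olah (181 against 431 FPKM), described with the lipid genes. Saa3, an acute phase protein, was the member on the other side, at 5.97 FPKM in Ezh2 KO and 2.46 FPKM in control.

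In absolute terms Csn2, Csn1s2a, Glycam1, Wap and Csn1s1 made up most of the difference in sum, with differences of -75313, -61163, -31248, -25790 and -21063 FPKM. The milk protein genes together made up 30.9% of all FPKM in Ezh2 KO, 42.7% in Ezh1 KO, 42.1% in Ezh1 het Ezh2 KO and 48.5% in control. In whole tissue, fewer secretory cells and less milk RNA per cell cannot be told apart. Keratins of the luminal epithelium are named here after their values were seen, and they do not measure how many cells are secretory. Krt8 was at 279 FPKM in Ezh2 KO and 260.4 FPKM in control. Krt18 was at 307 FPKM in Ezh2 KO and 319 FPKM in control, and Krt19 at 357 FPKM in Ezh2 KO and 366 FPKM in control. Epcam, an epithelial adhesion gene, was at 193 FPKM in Ezh2 KO and 181 FPKM in control. Of 15 luminal markers none was higher by 1 log2 unit and Muc1 was the 1 lower. The markers farthest above 0 were Ly6d (13.4 against 6.24 FPKM), which differed by 0.99, and Krt7 (22.5 against 11.7 FPKM), which differed by 0.89. The list's median was 0.14, and 0.41 with a common sum.

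**Figure D2:**
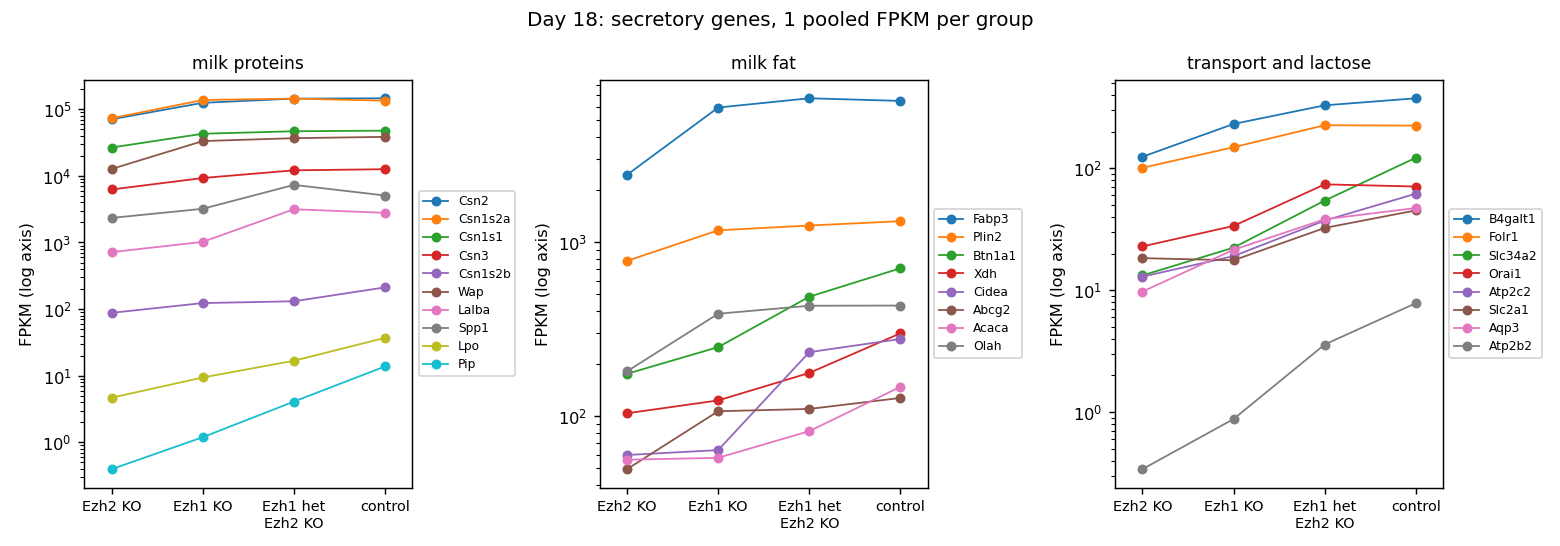
FPKM (log axis) of milk protein, milk fat and transport genes in the p18 groups, with 1 pooled value per group and each line joining the values of 1 gene. Ezh2 KO is at the left and control at the right. Csn2, Csn1s2a, Csn1s1 and Fabp3 are low in Ezh2 KO alone, whereas Cidea, Acaca and Slc2a1 are about as low in Ezh1 KO as in Ezh2 KO.

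Promoters of milk genes are shown because STAT5 recognises the palindrome TTCNNNGAA, and the casein promoters are where it was first studied. The sequences are RefSeq's on GRCm38.p6, 5′ to 3′ in the direction of the gene and ending at the base before its annotated start, with each match to the motif in capitals. Csn2 lies at chr5:87699426-87699675 on the minus strand, Csn1s1 at chr5:87665958-87666207 on the plus strand, Glycam1 at chr15:103565082-103565331 on the minus strand and Pip at chr6:41847299-41847548 on the plus strand.
Csn2: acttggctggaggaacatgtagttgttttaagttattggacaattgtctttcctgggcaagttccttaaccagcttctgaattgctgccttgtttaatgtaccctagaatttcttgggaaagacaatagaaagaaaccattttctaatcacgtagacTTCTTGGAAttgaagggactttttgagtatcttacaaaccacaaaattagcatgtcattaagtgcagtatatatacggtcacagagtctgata
Csn1s1: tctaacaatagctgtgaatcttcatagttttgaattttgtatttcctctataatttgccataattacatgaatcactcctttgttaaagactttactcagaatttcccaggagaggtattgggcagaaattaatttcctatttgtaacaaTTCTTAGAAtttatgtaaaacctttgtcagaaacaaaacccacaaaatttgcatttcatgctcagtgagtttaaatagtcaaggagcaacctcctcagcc
Glycam1: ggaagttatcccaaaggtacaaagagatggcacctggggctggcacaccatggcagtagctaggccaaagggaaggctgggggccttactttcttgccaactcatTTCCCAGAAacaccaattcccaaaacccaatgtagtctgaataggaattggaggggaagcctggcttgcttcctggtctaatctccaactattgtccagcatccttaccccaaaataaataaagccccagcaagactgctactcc
Pip: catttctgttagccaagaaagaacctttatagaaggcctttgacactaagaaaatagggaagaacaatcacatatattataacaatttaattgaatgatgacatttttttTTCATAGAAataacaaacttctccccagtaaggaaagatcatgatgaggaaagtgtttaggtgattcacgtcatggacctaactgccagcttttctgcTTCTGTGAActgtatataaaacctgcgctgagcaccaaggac
The first match starts 93 bases before the start in Csn2, 100 in Csn1s1, 145 in Glycam1 and 140 in Pip, where a second one starts at 42. Over the 250 bases before the start, 2 of 3 casein genes and 2 of 15 whey and other milk protein genes with a promoter sequence held a match, compared with 2197 of all 27025 genes (8.13%) and 2306 of their 32851 windows (7.02%). It was also found in 1 of 13 mineral transporter genes, none of 8 milk fat globule genes and 6 of 24 interferon response genes. The motif reads the same on both strands. A match is a description of the letters in this window and not a measured binding site.

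Genes that build and release the milk fat globule were split. Cidea, a lipid droplet protein that the lactating gland uses for milk lipid secretion, was at 59.7 FPKM in Ezh2 KO, 63.7 in Ezh1 KO, 233 in Ezh1 het Ezh2 KO and 277 in control. Btn1a1, the butyrophilin of the globule membrane, was at 175 FPKM in Ezh2 KO and 707 FPKM in control, and Xdh, the xanthine oxidoreductase that pairs with it there, at 104 FPKM in Ezh2 KO and 299 FPKM in control. Fabp3, a fatty acid carrier, was at 2431 FPKM in Ezh2 KO, 5922 in Ezh1 KO, 6696 in Ezh1 het Ezh2 KO and 6466 in control, again with Ezh2 KO alone at the low end. Abcg2, which pumps riboflavin and drugs into milk, was at 49.5 FPKM in Ezh2 KO and 127 FPKM in control. Plin2, which coats droplets, was short of the threshold at 779 FPKM in Ezh2 KO and 1317 FPKM in control. Against these 5 lower members of 17, Dgat2, an enzyme of triglyceride synthesis also abundant in fat cells, was higher, at 239 FPKM in Ezh2 KO, 61.99 in Ezh1 KO, 114 in Ezh1 het Ezh2 KO and 40.2 in control. Lpl (554 against 612 FPKM), Cd36 (666 against 552 FPKM) and Scd1 (1245 against 899 FPKM), which serve fat cells as well as alveoli, differed by less than 0.5. The median of the list, -0.14, changes sign with a common sum (0.17).

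In de novo fatty acid synthesis 4 of 16 genes were lower and none was higher. Acaca, which makes malonyl-CoA, was at 56.1 FPKM in Ezh2 KO, 57.5 in Ezh1 KO, 81.9 in Ezh1 het Ezh2 KO and 147 in control. Elovl5, an elongase, was at 37.2 FPKM in Ezh2 KO and 96.5 FPKM in control, and Olah, the thioesterase that ends chains early to give the medium-chain fatty acids of milk, at 181 FPKM in Ezh2 KO and 431 FPKM in control. Thrsp, the lipogenic gene with the highest FPKM of the list, was at 759 FPKM in Ezh2 KO and 601 FPKM in control. In cholesterol synthesis 2 of 20 were lower, Hsd17b7 (5.33 against 15.2 FPKM) among them, while Fdps (47.3 against 68.6 FPKM), the most abundant, differed by -0.53.

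Mineral transporters held the next large differences, with 7 of 18 lower, none higher and a median of -0.77. Slc34a2, a sodium and phosphate cotransporter, was at 13.2 FPKM in Ezh2 KO, 22.4 in Ezh1 KO, 54.4 in Ezh1 het Ezh2 KO and 122 in control. Atp2b2, the plasma membrane calcium pump that exports calcium into milk, was at 0.341 FPKM in Ezh2 KO, 0.879 in Ezh1 KO, 3.59 in Ezh1 het Ezh2 KO and 7.84 in control. Atp2c2, a calcium pump of the secretory pathway, was at 12.9 FPKM in Ezh2 KO and 62.03 FPKM in control, and Orai1, the store-operated calcium channel, at 22.9 FPKM in Ezh2 KO and 71.02 FPKM in control. In Slc34a2, Atp2b2 and Atp2c2 the 4 groups followed 1 order, with Ezh2 KO lowest, then Ezh1 KO, then Ezh1 het Ezh2 KO, and control highest. Slc5a5 (1.701 against 6.07 FPKM), the iodide transporter, Folr1 (101 against 224 FPKM), a folate receptor, and Slc39a8 (10.8 against 23.5 FPKM), a metal importer, were also lower. Atp2b1 (10.7 against 12.97 FPKM), the widely expressed calcium pump, differed by -0.25, and Stim1 (7.26 against 5.85 FPKM), the calcium sensor that opens Orai1, by 0.27.

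Genes of the last step of lactose synthesis had lower FPKM in Ezh2 KO. Beside Lalba, B4galt1, the galactosyltransferase that alpha-lactalbumin modifies, was at 125 FPKM in Ezh2 KO, 232 in Ezh1 KO, 329 in Ezh1 het Ezh2 KO and 376 in control. Slc2a1, the main glucose transporter of alveolar cells, was at 18.4 FPKM in Ezh2 KO and 45.2 FPKM in control. In all 4 of 15 genes of the list were lower. The list's median of -0.08 reads 0.22 with a common sum, so no direction is read from it. Of 14 water and ion channel genes, 3 were lower, with Aqp3, a channel for water and glycerol, at 9.75 FPKM in Ezh2 KO, 21.5 in Ezh1 KO, 38.3 in Ezh1 het Ezh2 KO and 47.3 in control, and the sodium channel subunits Scnn1b (5.25 against 15.2 FPKM) and Scnn1g (1.39 against 4.58 FPKM). Aqp1, the list's most abundant gene, was at 123 FPKM in Ezh2 KO and 109 FPKM in control. Of 25 amino acid transporters 2 were higher and none lower, while 15 lay below 0 and the median was -0.11. Slc1a5, a glutamine carrier, was at 93.7 FPKM in Ezh2 KO and 44.2 FPKM in control and Slc6a14 at 2.21 FPKM in Ezh2 KO and 0.563 FPKM in control. Their differences of 1.07 and 1.04 lay just past the threshold, and neither stayed past it under all 5 rescalings of the columns.

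Genes of the endoplasmic reticulum (ER), where milk proteins are translocated and folded, shared small differences in 1 direction. Of 35, 33 were below 0, the median was -0.61 (-0.30 with a common sum) and 1 passed the threshold, Hyou1, a chaperone, at 15.3 FPKM in Ezh2 KO and 33.4 FPKM in control. Xbp1, the transcription factor that expands the secretory ER, was at 342 FPKM in Ezh2 KO and 539 FPKM in control, Sec61a1, the translocon channel, at 67.8 FPKM in Ezh2 KO and 132 FPKM in control, and Sdf2l1 at 16.97 FPKM in Ezh2 KO and 33.5 FPKM in control. Cytosolic ribosomal protein genes lay on the other side of 0 in 74 of 77, with a median of 0.19, and none passed the threshold.

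**Figure D3:**
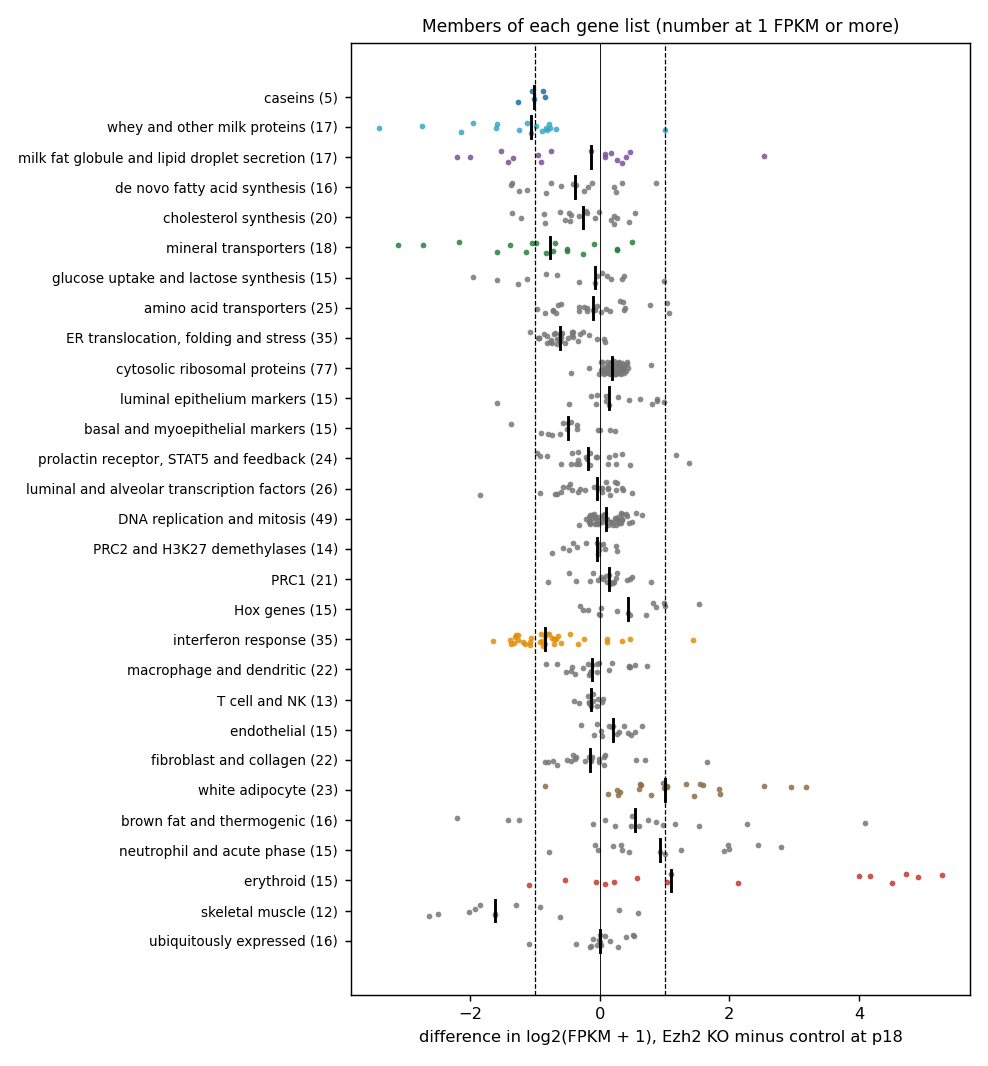
Differences in log2(FPKM + 1), Ezh2 KO minus control at p18, for the members of 29 gene lists. Each point is 1 gene at 1 FPKM or more, black bars are list medians, numbers in brackets are members shown, and dashed lines mark -1 and 1. Caseins, whey proteins, mineral transporters, interferon genes and skeletal muscle genes lie to the left, with medians from -1.62 to -0.77. White adipocyte, acute phase and erythroid genes lie to the right, with medians from 0.93 to 1.11.

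The pathway that turns the milk genes on was compared next. The receptor gene Prlr was at 5.105 FPKM in Ezh2 KO and 6.899 FPKM in control, Stat5a at 33.9 FPKM in Ezh2 KO and 42.8 FPKM in control and Stat5b at 15.7 FPKM in Ezh2 KO and 21.6 FPKM in control. Cish, a STAT5 target and feedback inhibitor, was at 33.8 FPKM in Ezh2 KO and 35.2 FPKM in control. These 4 were named for their role after their values were seen, and none passed the threshold. Of the 24 genes of the list, 2 were higher and none was lower. The lowest difference was that of Akt1, -0.97, at 78.9 FPKM in Ezh2 KO and 155 FPKM in control. The higher ones were Tnfsf11, which encodes RANKL, the progesterone-driven signal for alveolar growth, at 6.61 FPKM in Ezh2 KO, 5.49 in Ezh1 KO, 0.252 in Ezh1 het Ezh2 KO and 1.93 in control, and Ghr, the growth hormone receptor gene, at 194 FPKM in Ezh2 KO and 85.6 FPKM in control. Elf5, the ETS factor that directs alveolar fate, was at 369 FPKM in Ezh2 KO, 417 in Ezh1 KO, 759 in Ezh1 het Ezh2 KO and 698 in control, a difference of -0.92. For Elf5 the Ezh1 KO group stood near Ezh2 KO, and Ezh1 het Ezh2 KO near the control.

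Among 26 luminal and alveolar transcription factors, 1 was lower. Bhlha15, also called Mist1, which shapes the secretory apparatus of exocrine cells, was at 7.41 FPKM in Ezh2 KO, 8.86 in Ezh1 KO, 24.5 in Ezh1 het Ezh2 KO and 29.4 in control. Gata3 (28.8 against 36.5 FPKM), Ehf (91.1 against 91.4 FPKM), Sox9 (17.9 against 17.5 FPKM), Id2 (117 against 158 FPKM) and Cebpb (42.4 against 38.6 FPKM), factors of luminal and alveolar lineages, all differed by less than 0.5. Among 16 hormone receptors and their targets, 2 were higher and 2 lower. Calca, the calcitonin gene, was at 102 FPKM in Ezh2 KO, 61.5 in Ezh1 KO, 54.2 in Ezh1 het Ezh2 KO and 11.9 in control, and Areg, an EGF family ligand under oestrogen control, at 7.83 FPKM in Ezh2 KO and 2.11 FPKM in control, both higher. Vdr, the vitamin D receptor gene, was at 20.7 FPKM in Ezh2 KO and 60.5 FPKM in control, which is lower.

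Tight junction genes included 1 lower of 22, Cldn8 (43.5 against 89.5 FPKM), while Cldn3 was at 198 FPKM in Ezh2 KO and 113 FPKM in control. Basal and myoepithelial markers included 1 lower of 15, Myh11, a smooth muscle myosin, at 26.98 FPKM in Ezh2 KO and 71.5 FPKM in control. Acta2, smooth muscle actin, was at 510.2 FPKM in Ezh2 KO and 854 FPKM in control. The basal list's median was -0.49, and -0.18 with a common sum. Expi, a milk-associated protease inhibitor gene that RefSeq names Wfdc18, went against the other abundant milk-phase genes, with 12764 FPKM in Ezh2 KO, 19882 in Ezh1 KO, 17057 in Ezh1 het Ezh2 KO and 6928 in control.

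Genes that PRC2 is known to hold silent were mostly below 1 FPKM. Of 39 Hox genes, 15 reached that level, and 1 was higher, Hoxc8, at 8.27 FPKM in Ezh2 KO and 2.197 FPKM in control. The neighbouring Hoxc6 was at 4.78 FPKM in Ezh2 KO and 1.89 FPKM in control and Hoxa10 at 2.79 FPKM in Ezh2 KO and 0.911 FPKM in control. The median of the 15 was 0.43. Members such as Hoxa10 passed the filter through the Ezh2 KO column alone, which favours a higher median. At p13 the median of the 15 was -0.35, with 2 lower and none higher. Of 71 other developmental transcription factors 16 reached 1 FPKM, with none higher and Irx2 the 1 lower, at 72.4 FPKM in Ezh2 KO and 151 FPKM in control. Of 6 cyclin-dependent kinase inhibitor genes at 1 FPKM or more, 2 were higher, Cdkn2c (57.8 against 21.5 FPKM) and Cdkn2b (3.24 against 0.761 FPKM). Cdkn2b too passed the filter through Ezh2 KO alone. Cdkn1a, a target of p53, was at 32.7 FPKM in Ezh2 KO and 37.7 FPKM in control. None of 21 PRC1 genes and none of 49 genes of DNA replication and mitosis passed the threshold, and their medians were 0.15 and 0.10. Pcna, the replication clamp gene, was at 91.96 FPKM in Ezh2 KO and 72.7 FPKM in control.

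Fat cell genes were higher in Ezh2 KO. Of 23 white adipocyte genes 12 were higher and none was lower, with a median of 1.01. Lep, which encodes the hormone leptin, was at 204 FPKM in Ezh2 KO, 47.5 in Ezh1 KO, 49.6 in Ezh1 het Ezh2 KO and 21.7 in control. Adipoq, the adiponectin gene, was at 1198 FPKM in Ezh2 KO, 593 in Ezh1 KO, 649 in Ezh1 het Ezh2 KO and 333 in control, and Car3, an abundant carbonic anhydrase of fat, at 3455 FPKM in Ezh2 KO and 959 FPKM in control. Sfrp5, a secreted Wnt inhibitor of adipocytes, was at 37.2 FPKM in Ezh2 KO and 3.95 FPKM in control, and Fabp4, the fatty acid carrier with the highest FPKM of the list, at 8898 FPKM in Ezh2 KO and 3539 FPKM in control. Mest, an imprinted gene that goes with fat expansion, was at 57.6 FPKM in Ezh2 KO and 18.4 FPKM in control. Cfd (1636 against 1316 FPKM), Pparg (40.1 against 25.5 FPKM) and Pck1 (164 against 107 FPKM) were above control by less than 1, and Acsl1 (237 against 427 FPKM), a long-chain acyl-CoA synthetase that other cells use too, lay below it. In Lep, Adipoq and Sfrp5 Ezh2 KO stood alone at the top. More fat in the tissue and more of these transcripts per fat cell cannot be told apart.

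Brown fat genes were mixed, with 4 of 16 higher and 3 lower. Ucp1, the uncoupling protein that makes heat in brown fat, was at 32.4 FPKM in Ezh2 KO, 1.36 in Ezh1 KO, 1.82 in Ezh1 het Ezh2 KO and 0.964 in control. The 3 other p18 groups were all below 2 FPKM. Cox8b, a cytochrome oxidase subunit of brown fat and muscle, was at 87.2 FPKM in Ezh2 KO and 17.3 FPKM in control, Cpt1b, which admits fatty acids to mitochondria, at 3.59 FPKM in Ezh2 KO and 0.589 FPKM in control, and Elovl3, an elongase of brown fat, at 1.66 FPKM in Ezh2 KO and 0.189 FPKM in control. The 3 lower members, Cidea, Fabp3 and Ucp3 (9.44 against 23.8 FPKM), included the pair that alveolar cells use for milk fat. Prdm16 (1.17 against 0.848 FPKM) and Dio2 (1.37 against 0.688 FPKM), which define brown fat, were near 1 FPKM in both groups. In fatty acid oxidation 3 of 24 were higher, Cpt1b, Decr1 (37.9 against 17.4 FPKM) and, outside the naming rule, Acadm (99.8 against 48.7 FPKM), and Ehhadh (19.3 against 42.5 FPKM) was lower.

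Red cell genes held the highest differences among protein-coding genes at 5 FPKM or more, Gm5506 apart. Of 15 erythroid genes 9 were higher and 1, the transferrin receptor gene Tfrc (29.6 against 63.9 FPKM), was lower. Beta-s, an adult beta-globin, was at 3376 FPKM in Ezh2 KO, 572 in Ezh1 KO, 154 in Ezh1 het Ezh2 KO and 85.7 in control. Alas2, the erythroid enzyme of haem synthesis, was at 98.4 FPKM in Ezh2 KO, 16.6 in Ezh1 KO, 4.25 in Ezh1 het Ezh2 KO and 3.39 in control. Hba-a1, an alpha-globin, was at 985 FPKM in Ezh2 KO and 36.2 FPKM in control. Near-identical globin copies share reads, so the split between Beta-s, Hbb-b1 and Hbb-b2 is uncertain. Slc4a1 (1.22 against 0.0305 FPKM), the anion exchanger of the red cell membrane, was near 1 FPKM in Ezh2 KO. Erythroid genes made up 0.696% of all FPKM in Ezh2 KO, 0.163% in Ezh1 KO, 0.0880% in Ezh1 het Ezh2 KO and 0.0803% in control. What blood left in the tissue contributes to other differences was not tested.

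**Figure D4:**
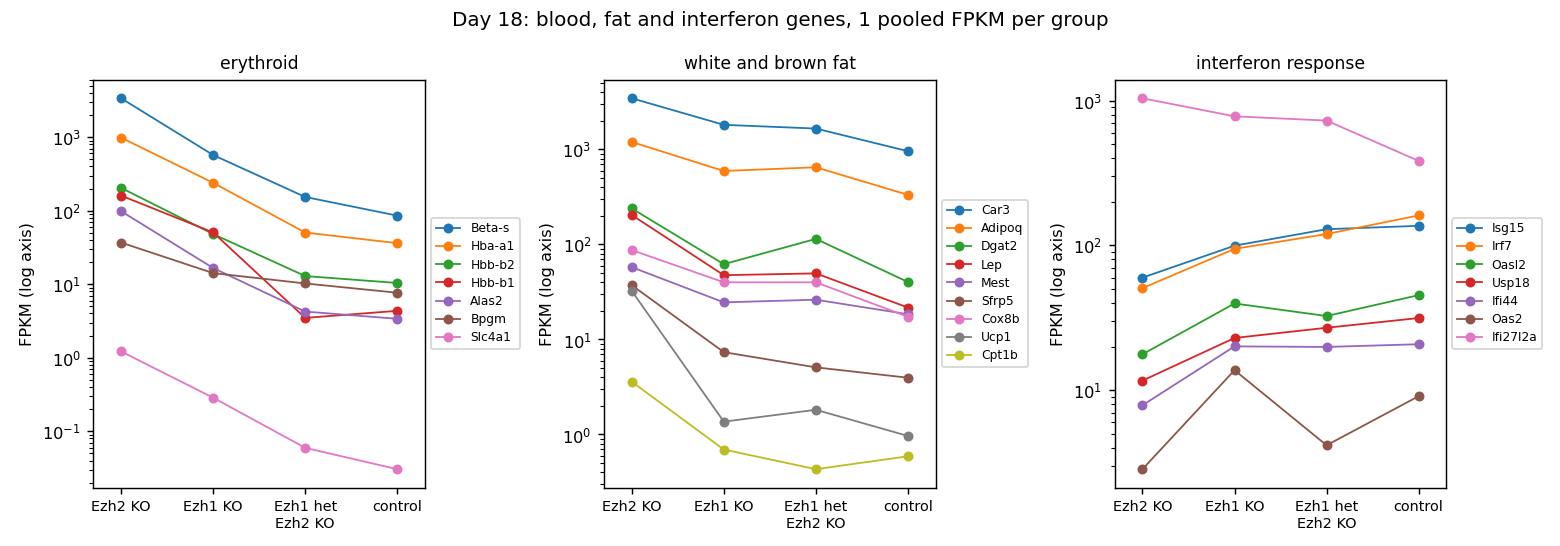
FPKM (log axis) of erythroid, fat and interferon response genes in the p18 groups, with Ezh2 KO at the left and control at the right, 1 pooled value per group, each line joining the values of 1 gene. Globins and Ucp1 peak in Ezh2 KO. The interferon genes shown are lowest there, except Ifi27l2a, which is highest there.

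Interferon response genes were lower, with 13 of 35 past the threshold, 1 higher and a median of -0.85. Irf7, the transcription factor that amplifies the response, was at 50.7 FPKM in Ezh2 KO, 94.6 in Ezh1 KO, 119.9 in Ezh1 het Ezh2 KO and 161 in control. Isg15, a ubiquitin-like modifier, was at 59.9 FPKM in Ezh2 KO, 99.6 in Ezh1 KO, 129 in Ezh1 het Ezh2 KO and 137 in control, and Usp18, which removes it, at 11.6 FPKM in Ezh2 KO and 31.5 FPKM in control. The 2'-5'-oligoadenylate synthetases Oas1a (7.12 against 18.5 FPKM), Oas2 (2.84 against 9.08 FPKM) and Oas3 (1.58 against 5.201 FPKM) and their relative Oasl2 (17.7 against 45.3 FPKM) were all lower. These are paralogs, and reads shared between them may blur single values. Ifi44 (7.86 against 20.8 FPKM), Xaf1 (6.74 against 18.4 FPKM), Ifit1 (17.8 against 38.6 FPKM), Mx1 (2.27 against 5.804 FPKM), Stat2 (6.94 against 15.7 FPKM) and Dhx58 (6.18 against 14.97 FPKM) were the remaining lower ones. Psmb8 (137 against 126 FPKM) and Tap1 (38.4 against 45.6 FPKM), which prepare peptides for antigen presentation, differed by 0.12 and -0.24, and none of 13 antigen presentation genes passed the threshold. Ifi27l2a, the member with the highest FPKM, lay opposite at 1039.7 FPKM in Ezh2 KO and 384 FPKM in control. With a common sum 7 of the 13 are past the threshold and the median is -0.53.

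The promoters of Isg15 and Oas1a are shown because interferon-stimulated genes are known for a repeated GAAA element. Letters that spell GAAA, any 2 bases and GAAA again on the printed strand are in capitals, in RefSeq sequences on GRCm38.p6 that end at the base before the annotated start. Isg15 lies at chr4:156200819-156201068 and Oas1a at chr5:120907526-120907775, both on the minus strand.
Isg15: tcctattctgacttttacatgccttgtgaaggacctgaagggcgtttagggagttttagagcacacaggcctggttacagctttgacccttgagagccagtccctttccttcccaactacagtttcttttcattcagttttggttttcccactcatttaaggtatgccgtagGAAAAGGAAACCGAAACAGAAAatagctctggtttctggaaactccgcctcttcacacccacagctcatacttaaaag
Oas1a: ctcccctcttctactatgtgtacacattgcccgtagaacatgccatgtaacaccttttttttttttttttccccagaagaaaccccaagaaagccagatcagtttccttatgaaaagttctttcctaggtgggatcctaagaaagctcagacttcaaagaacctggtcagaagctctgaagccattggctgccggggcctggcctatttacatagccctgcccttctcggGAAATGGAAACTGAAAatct
Isg15 holds 3 overlapping matches, at 78, 72 and 66 bases before the start, and Oas1a holds 2, at 20 and 14. Searched on both strands, a match was found in 5 of the 9 lower interferon genes with a promoter sequence and in 6 of the 15 that were not lower, against 936 of all 27025 genes (3.46%) and 978 of their 32851 windows (2.98%). Members on either side of the threshold held it, and this search was added after the values were seen.

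Lists of macrophages, T and NK cells, endothelium and fibroblasts differed less. None of 22 macrophage and dendritic cell genes, 13 T and NK cell genes or 15 endothelial genes passed the threshold, and Lyz2, a lysozyme of myeloid cells, was at 231 FPKM in Ezh2 KO and 233 FPKM in control. Of 22 fibroblast and collagen genes 1 was higher, Dpt, a matrix protein also abundant in fat tissue, at 238 FPKM in Ezh2 KO and 75.1 FPKM in control, while Col1a2 was at 78.8 FPKM in Ezh2 KO and 143 FPKM in control and Col3a1 at 176 FPKM in Ezh2 KO and 306 FPKM in control. Acute phase and neutrophil genes were higher in 7 of 15, with a median of 0.93. Lcn2, an iron-scavenging protein with the highest FPKM of the list and also a member of the milk protein list, lay the other way at 566 FPKM in Ezh2 KO, 1011 in Ezh1 KO, 978 in Ezh1 het Ezh2 KO and 970.2 in control, a difference of -0.78. Hp, the haptoglobin gene, which fat tissue also makes, was at 347 FPKM in Ezh2 KO, 157 in Ezh1 KO, 156 in Ezh1 het Ezh2 KO and 49.3 in control, and Pglyrp1, an antibacterial protein, at 80.3 FPKM in Ezh2 KO and 13.9 FPKM in control. Slpi, a protease inhibitor of secretions, was at 43.7 FPKM in Ezh2 KO and 10.3 FPKM in control, and Serpina3n, an acute phase serpin outside the list, at 134 FPKM in Ezh2 KO and 16.2 FPKM in control. Skeletal muscle genes were low in both groups. Of 23 such genes, 11 were below 1 FPKM in both groups, and 8 of the 12 others were lower in Ezh2 KO. Members such as Ckm passed the filter through the control column alone, which favours a lower call. Mb, the most abundant member, lay the other way at 17.6 FPKM in Ezh2 KO and 14.2 FPKM in control. Ckm, a creatine kinase gene of muscle, had 0.2596 FPKM in Ezh2 KO and 6.13 FPKM in control, and the whole list made up 0.00564% of all FPKM in Ezh2 KO and 0.00792% in control.

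Of 18 Wnt pathway genes 3 were higher, with a median of 0.39, namely Sfrp5, described with the fat genes, Rspo1 and Apcdd1. Rspo1, a ligand that strengthens Wnt signalling, was at 61.9 FPKM in Ezh2 KO, 52.6 in Ezh1 KO, 21.5 in Ezh1 het Ezh2 KO and 15.4 in control, and Apcdd1, a Wnt inhibitor, at 19.9 FPKM in Ezh2 KO and 8.22 FPKM in control. Of 8 EGF family and receptor genes, the ligand gene Areg (7.83 against 2.11 FPKM) was higher and the ligand gene Egf (0.783 against 2.75 FPKM) was lower. Of 13 IGF axis genes 1 was higher. Igf1 was at 18.5 FPKM in Ezh2 KO, 9.46 in Ezh1 KO, 8.77 in Ezh1 het Ezh2 KO and 5.66 in control, and Igfbp7, the most abundant of the list, at 231 FPKM in Ezh2 KO and 189 FPKM in control. None of 16 Notch pathway genes passed the threshold. The metallothionein genes Mt1 (381 against 184 FPKM) and Mt2 (235 against 73.8 FPKM) were higher. In the clock list Hlf (9.98 against 26.2 FPKM) and Cry1 (4.78 against 10.8 FPKM) were lower. Cyp1a1, a cytochrome that responds to aryl hydrocarbons, was at 7.77 FPKM in Ezh2 KO, 0.918 in Ezh1 KO, 0.223 in Ezh1 het Ezh2 KO and 0.392 in control. Of 16 ubiquitously expressed genes, Tfrc alone passed the threshold and the median was 0.00.

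Of the protein-coding genes at 5 FPKM or more, the 15 with the lowest differences included some outside these lists. Tc2n, a C2-domain protein, was at 2.55 FPKM in Ezh2 KO, 5.48 in Ezh1 KO, 10.5 in Ezh1 het Ezh2 KO and 27.2 in control, and Mfsd2a, a transporter of lysophospholipids, at 1.297 FPKM in Ezh2 KO, 1.69 in Ezh1 KO, 6.38 in Ezh1 het Ezh2 KO and 12.8 in control. Slc9a4 (3.81 against 24.4 FPKM), a sodium and proton exchanger, Kcnk6 (7.63 against 38.4 FPKM), a potassium channel, Ppapdc1a (0.3403 against 5.15 FPKM), a lipid phosphatase, and D830030K20Rik (1.84 against 20.03 FPKM) completed them. In these genes control was again the highest of the p18 groups, except in Ppapdc1a, where Ezh1 het Ezh2 KO was highest at 5.73 FPKM. Gm5506, an enolase retrocopy at 40.98 FPKM in Ezh2 KO, 23.1 in Ezh1 KO, 8.37 in Ezh1 het Ezh2 KO and 0.311 in control, is named by the same rule on the higher side. It was also low in p13 control, at 0.480 FPKM, but not in virgin control, at 57.1 FPKM without and 49.5 FPKM with prolactin. The low values were thus those of the pregnant control groups. Reads shared with its parent gene make its value uncertain.

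How these differences lie on the course of pregnancy was examined in genotypes that share no column with the comparison. In Ezh1 KO, 61 of 12419 genes (0.491%) were at least 2 log2 units higher at p18 than at p13. At p18, 30 of these 61 (49.2%) were lower in Ezh2 KO relative to control and 5 higher, with a median difference of -0.89. Among the 12237 genes that moved less between the stages in Ezh1 KO, 1.89% were lower. In Ezh1 het Ezh2 KO, 69 of 12440 genes (0.555%) were at least 2 log2 units higher at p18 than at p13. Of these, 42 (60.9%) were lower in Ezh2 KO and 10 (14.5%) higher, with a median of -1.16. Among the genes that moved less there, 1.81% were lower and 2.06% higher. Without the milk protein, erythroid and muscle lists the lower share was 32 of 53 (60.4%) in Ezh1 het Ezh2 KO and 20 of 43 (46.5%) in Ezh1 KO. Of the protein-coding genes alone, 30 of 43 were lower and 2 higher in the Ezh1 het Ezh2 KO class. In the Ezh1 KO class 25 of 47 were lower and 1 higher. An example from the Ezh1 KO class, chosen after its values were seen, is Slc28a3, a nucleoside transporter, at 29.1 FPKM in Ezh2 KO and 110.5 FPKM in control.

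Genes at least 2 log2 units lower at p18 than at p13 were examined in the same way. In Ezh1 het Ezh2 KO they were 160 of 12440 genes (1.29%), of which 51 (31.9%) stood higher in Ezh2 KO relative to control and 28 (17.5%) lower, with a median of 0.56. The 91 protein-coding genes among them (0.765%) included 30 higher (33.0%) and none lower, with a median of 0.79. In Ezh1 KO they were 121 of 12419 genes (0.974%), with 24 higher, 26 lower and a median of 0.04, and the 80 protein-coding genes among them (0.674%) included 11 higher and 8 lower. The result on this side thus depended on the genotype in which the stages were compared and on the kinds of gene counted.

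The same pair of genotypes at p13 showed many of these genes on the opposite side. Ezh2 itself was not lower there, at 13.7 FPKM in the p13 group labelled Ezh2 KO and 12.9 FPKM in p13 control. The p13 value of Ezh2 thus does not bear out that label. It cannot refute the label either, since it takes in every exon and every cell type of the tissue. Csn2 differed by -1.05 at p18 and by 2.94 at p13, where it was at 42713 FPKM in Ezh2 KO and 5569.7 FPKM in control. Wap differed by -1.60 at p18 and by 3.49 at p13, with 291 FPKM in p13 Ezh2 KO and 24.99 FPKM in p13 control. Irf7 was at 74.8 FPKM in p13 Ezh2 KO and 20.8 FPKM in p13 control, above control then and below it at p18. Lep was at 67.6 FPKM in p13 Ezh2 KO and 452 FPKM in p13 control, below control then and above it at p18. Ucp1 was higher in Ezh2 KO at both stages, with 65.5 FPKM in p13 Ezh2 KO and 0.499 FPKM in p13 control. Atp2b2 had 0.107 FPKM in p13 Ezh2 KO and 0.0592 FPKM in p13 control, and Pip had 0.125 FPKM in p13 Ezh2 KO and was listed at 0 in p13 control, so that their p18 differences have no p13 counterpart.

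Counted over the 11887 protein-coding genes that passed the filter at both stages, 201 (1.69%) were lower at p18 and 278 (2.34%) higher at p13. The overlap of 55 genes made up 27.4% of the first list and 19.8% of the second. The 269 genes (2.26%) higher at p18 and the 666 (5.60%) lower at p13 shared 156 genes, 58.0% of the first list and 23.4% of the second. In the same direction at both stages, 29 genes were higher, 10.8% of those higher at p18, against 2.34% of all genes higher at p13. The 12 genes lower at both stages made up 5.97% of those lower at p18, near the 5.60% of all genes lower at p13. Markers of other tissues differed at p13 as well. Skeletal muscle genes made up 0.00767% of all FPKM in p13 Ezh2 KO and 1.72% in p13 control, and erythroid genes 0.264% in p13 Ezh2 KO and 0.822% in p13 control. Their part in the overlap was not tested.

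**Figure D5:**
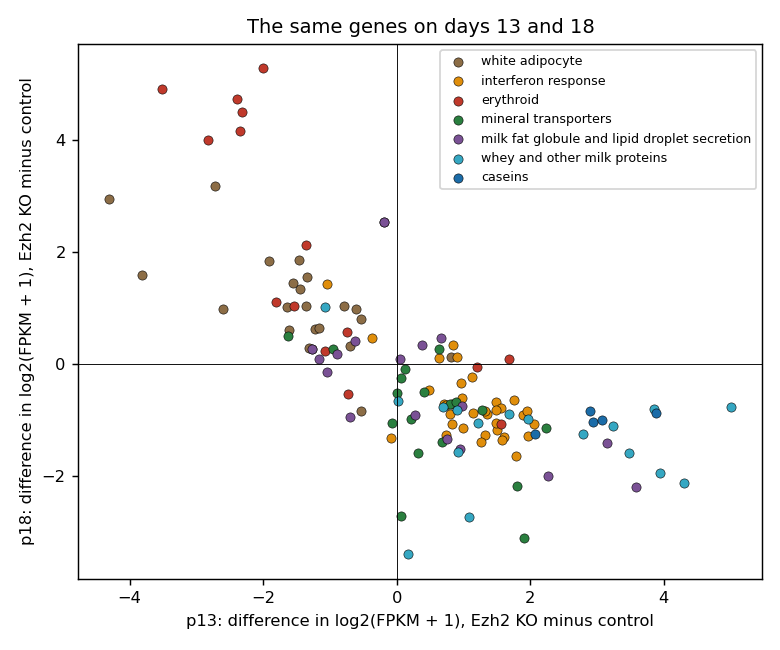
Difference in log2(FPKM + 1), Ezh2 KO minus control, at p18 (vertical axis) against the same difference at p13 (horizontal axis), for the members of 7 lists. Each point is 1 gene. Caseins lie below 0 on the p18 axis and above 0 on the p13 axis, from 2.08 for Csn1s2b to 3.89 for Csn1s2a, in the lower right with most whey, mineral transport and interferon genes, while most fat and red cell genes lie in the upper left.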

How the data were processed

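Poly(A) RNA of whole mammary tissue was sequenced, per the labels' protocols. The authors deposited FPKM, 1 column per group and 12 columns in all, and the labels do not say how the 2 or 3 libraries of a group were pooled. TopHat, Cufflinks and Cuffdiff are among the tools named, with mouse build mm9, per the submitters' processing notes, which give them no versions or roles. The 9 chromatin libraries were not used here. A linear model had been planned and could not be fitted with 1 value per group, so differences are descriptions: log2(FPKM + 1) in Ezh2 KO minus control, for genes at 1 FPKM or more in either column, counted at 1 log2 unit. FPKM is divided by the mapped fragments of a library, which include those of very abundant milk RNA. The deposited columns do not share a common sum, however. Without the milk protein genes they summed to 544158 FPKM in p18 Ezh2 KO and 505018 FPKM in p18 control. How far milk RNA weighs on the values of other genes was not tested. Gene types came from RefSeq's GRCm38.p6 table, of which 20004 genes matched on symbol and 2311 on synonym, and 237 did not match. Members and the 48 gene lists were chosen with earlier results of these data known. Named genes are Ezh2, Ezh1, the 15 lowest and 15 highest differences among protein-coding genes at 5 FPKM or more, the most abundant and the 3 most distant members of each list, and any member of the milk protein, milk fat globule, mineral transport, erythroid, fat, interferon, PRC2 and luminal factor lists; exceptions are marked, and a few genes that the rule names are not reported here. Alternatives were a pseudocount of 0.1 or 5, the filter left out or raised to 5 FPKM, 5 rescalings of the columns, protein-coding genes alone and a threshold of 2. Python 3.11.15, pandas 2.3.3, NumPy 2.4.6 and matplotlib 3.10.9 were used, and the functions were tested on simulated data.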

Additional observations from a re-analysis of the deposited data

Results flagged for a closer look

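The median difference between Ezh2 KO and control had opposite signs at p18 and p13 in 27 of 48 gene lists. At p18 the median of 21 of the 48 lists changes sign under at least 1 rescaling of the columns, so the count of 27 is not read as a result. In 4 of the 27 lists, given here, the median was at least 1 log2 unit from 0 at both stages. The difference between the stages was not tested, since each group has 1 pooled value. The median log2 difference at p18 minus that at p13 was -3.95 for the caseins and -2.89 for the whey and other milk proteins. It was 2.35 for the white adipocyte genes and 2.64 for the erythroid genes. Members of these lists share cells and a common pool of RNA, and are not independent.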

How the results depend on the processing

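The counts of genes past the threshold depended on the scale. Against 340 higher and 306 lower as reported, a common sum gave 621 and 175, a pseudocount of 0.1 gave 522 higher, a pseudocount of 5 gave 176 and 168, and a threshold of 2 gave 85 and 69. With a common sum 0 caseins, 2 lactose and glucose genes and 7 interferon genes were lower, and with a pseudocount of 5, 5 interferon genes were. With a threshold of 2 no casein, lactose or interferon gene was lower, that is 0 in each list, and 2 milk fat globule, 3 mineral transport and 3 whey genes were lower and 3 adipocyte genes higher. Under all 5 rescalings, 283 of the 340 higher and 175 of the 306 lower genes remained past the threshold, among them 9 of 9 higher erythroid, 9 of 12 adipocyte, 6 of 9 whey and 7 of 13 interferon genes. Of 32 genes named by rank or as targets, 31 stayed on the same side of the threshold in each of the 7 settings tried on single genes, and Ppapdc1a crossed it, with -0.93 at the smallest. Apart from Ezh2 and Ezh1, these genes were picked for the largest differences. That they stayed past the threshold was thus largely set by the choice and is no check of them. Of these 32, Ezh1 changed sign, from -0.10 to 0.27. The median of 21 of the 48 lists changed sign under at least 1 rescaling. No paired analysis was possible because the columns are pooled groups that carry no replicate numbers. For the same reason no replicate could be left out and the planned linear model could not be fitted. Read depth is unknown, so what it limits cannot be given.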

Other observations

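Outside the lists, small RNA genes were the least even class between the groups. Of 201 at 1 FPKM or more, 26.9% were higher in Ezh2 KO and 34.8% lower. Of those past the threshold, 76 were listed at 0 in 1 column, and the RNA sequenced was poly(A) RNA. No difference in small RNA levels is therefore read from these shares. Of 212 long non-coding RNA genes, 3 were higher and 8 lower, and of 85 pseudogenes 7 were higher and 4 lower.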
